A study of Homo sapiens with 6 samples.

Results

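The genes described here encode the ATPases and selected subunits of the chromatin remodelers of the SWI/SNF, ISWI, CHD and INO80 families, with 3 further SNF2-type ATPases, SMARCAD1, HELLS and ATRX. The list held 46 genes of the 60609 in the files, and each symbol matched 1 gene ID. It comprised 19 SWI/SNF, 6 ISWI, 8 CHD, 10 INO80 and 3 other SNF2 genes. They were chosen by name and not by a measured value, but with earlier results of these data known. Poly(A) RNA was sequenced from K-562, an established human leukaemia line with erythroid and megakaryocytic features, in 3 WT and 3 Delta-TRRAP libraries. In all 6 libraries endogenous EP400, the scaffold and motor subunit of the TIP60 complex, carried a homozygous dTAG degradation tag. The cells were given 500 nM dTAGV-1, which removes the tagged protein, for 24 h. The WT cells also expressed exogenous WT EP400 from the AAVS1 locus, whereas the Delta-TRRAP cells expressed EP400 without the region that recruits TRRAP, the large scaffold protein to which activators bind. Each line was 1 clone, so clone and genotype cannot be told apart, and the spread between the 3 libraries of a group does not include differences between clones.

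Remodelers of these families use the energy of ATP to slide, evict or restructure nucleosomes. SWI/SNF (BAF) complexes contain either SMARCA4 (BRG1) or SMARCA2 (BRM) as the motor and open chromatin at enhancers and promoters. ISWI complexes, built on SMARCA5 (SNF2H) or SMARCA1 (SNF2L), space nucleosomes evenly. CHD proteins carry paired chromodomains, and CHD3 and CHD4 are the motors of the NuRD corepressor. The INO80 complex shares the RUVBL1 and RUVBL2 ring and actin-related proteins with TIP60, and EP400 itself carries an INO80-type motor. Several of these positions are filled by one of a pair of paralogs, so that the balance between paralogs can set which form of a complex a cell can assemble.

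The promoter windows of the 3 genes with the largest changes are printed because they are the members that passed the fold threshold used below. Each runs from 250 bases before to 50 bases after a RefSeq start site on GRCh38.p14. Capitals mark the letters AANATGGCG, a core YY1 site, on either strand, and lower case marks the rest. SMARCA2 has 4 windows in this table, and the most upstream one is shown.
SMARCA1, chrX:129523441-129523740, minus strand: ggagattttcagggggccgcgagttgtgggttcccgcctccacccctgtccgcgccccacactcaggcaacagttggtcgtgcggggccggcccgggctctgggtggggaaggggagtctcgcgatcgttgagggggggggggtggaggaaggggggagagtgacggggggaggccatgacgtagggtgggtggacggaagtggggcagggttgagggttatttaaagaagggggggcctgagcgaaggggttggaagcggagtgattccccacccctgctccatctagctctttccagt
SMARCA2, chr9:2015097-2015396, plus strand: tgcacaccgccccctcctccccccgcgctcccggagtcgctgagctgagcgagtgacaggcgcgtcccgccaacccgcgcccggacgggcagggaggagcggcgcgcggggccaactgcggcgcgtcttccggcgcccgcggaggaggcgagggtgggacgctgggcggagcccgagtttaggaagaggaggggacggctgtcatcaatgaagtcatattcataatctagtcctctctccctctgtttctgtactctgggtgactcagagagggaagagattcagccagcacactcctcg
ACTR5, chr20:38748210-38748509, plus strand: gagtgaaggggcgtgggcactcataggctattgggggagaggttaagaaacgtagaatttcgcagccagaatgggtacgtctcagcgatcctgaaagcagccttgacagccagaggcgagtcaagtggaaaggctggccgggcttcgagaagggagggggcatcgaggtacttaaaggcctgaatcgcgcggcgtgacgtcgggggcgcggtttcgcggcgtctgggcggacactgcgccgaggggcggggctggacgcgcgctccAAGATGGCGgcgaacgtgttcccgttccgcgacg

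YY1 is a DNA-binding subunit of the INO80 complex and its own count was lower in Delta-TRRAP (below), so windows with these letters are set out for comparison. RefSeq windows were found for 38 of the 46 members, 59 windows in all. AANATGGCG was present in 8.47% of the 59 windows and in 3.19% of all 35116 windows of the table. The matches, each with up to 10 bases on both sides, lay in ACTR5 and INO80E of the INO80 complex, in DPF2 and SMARCD1 of SWI/SNF and in CHD9.
ACTR5, chr20:38748466-38748494, 16 bases after the start site: cgcgcgctccAAGATGGCGgcgaacgtgt
CHD9, chr16:53208450-53208478, 9 bases after a start site: cgtactgcatCGCCATCTTgagcttgttg
DPF2, chr11:65333874-65333901, 32 bases after the start site: aggaacagggAAGATGGCGgctgtggtg
INO80E, chr16:29996053-29996081, 178 bases before the start site: ttccagcgtcCGCCATTTTtgtggcgtca
SMARCD1, chr12:50085357-50085385, 25 bases after the start site: cggctccgggAAGATGGCGgcccgggcgg
The letters read on the gene's own strand in ACTR5, DPF2 and SMARCD1 and on the opposite strand in CHD9 and INO80E. They contain ATG, the letters of a start codon. Whether the matches in ACTR5, DPF2 and SMARCD1 are translation starts was not examined. Of these 5 genes, ACTR5 and INO80E were lower in Delta-TRRAP, DPF2 was higher, and SMARCD1 and CHD9 did not pass the test. Binding of YY1 at these windows, and any part of it in the changes, was not tested. The E-box CACGTG was found in 5.08% of member windows (CHD9, MCRS1 and PBRM1) and in 7.26% of all windows. The E2F site TTTCGCGC was found in 0 of the 59 member windows and in 0.515% of all windows. Member windows had a median of 25 CpG dinucleotides and a GC content of 65.3%, against 14 and 58.7% over all windows.

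Library totals were between 35076835 and 42616061 counts in genes, and the members took 0.441% to 0.516% of them. Mitochondrial transcripts took 3.18% to 3.71% of counts in the WT libraries and 5.07% to 6.24% in the Delta-TRRAP libraries. All 10 erythroid and megakaryocytic marker genes of the K-562 list had a mean above 100 normalized counts. Summed, they gave 232313 to 234823 normalized counts per WT library and 145385 to 149739 per Delta-TRRAP library. Lymphoid markers, checked because the labels name the cells lymphoblasts, summed to 489 to 503 per WT library and 418 to 451 per Delta-TRRAP library, with CD3D as the only one of 6 above 100 and MS4A1 at 0. Fibroblast markers summed to 35.5 to 57.0 per WT library and to 910 to 973 per Delta-TRRAP library. Of these 7 genes 6 had a count, LUM was at 0, and COL1A2 accounted for most of the sum (1.62 ± 1.99 in WT and 876 ± 45.1 in Delta-TRRAP, mean ± SD, n = 3). The part of these differences in the members' values was not tested. EP400, the edited gene, had normalized counts of 4897, 4897 and 5377 in WT and of 5533, 6833 and 4357 in Delta-TRRAP, with overlapping groups and an adjusted p of 0.272 in the edgeR fit. Its count does not separate the tagged copies from the transgene, so it does not check the labels.

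The first question was how many remodeler genes changed between Delta-TRRAP and WT cells. Normalized counts are counts scaled by TMM library size, and all 46 genes were looked up in a single edgeR fit over 19114 genes. ACTL6B, the neuronal actin-like subunit, had 0 to 2 counts per library and was not tested, which left 45 members. At an adjusted p of 0.01 or less, 18 members were lower in Delta-TRRAP, 5 were higher and 22 did not pass. Over all genes tested, 27.6% passed as lower and 30.7% as higher, whereas among members the shares were 40% and 11.1%. Members are well expressed, and 38 of them had a mean normalized count of 1000 or more. Among all 6804 genes at that level 45.9% passed as lower and 22.1% as higher, so the members' lower share lay near that of other abundant genes and their higher share below it. The members' shares are over all 45, those with a lower mean count included. The median log2 fold change was -0.14 over the 45 members, -0.14 over the 6804 abundant genes and 0.03 over all genes. With a fold change of at least 2 as well, 3 members were called lower, SMARCA1, SMARCA2 and ACTR5, against 6.08% of all genes and 3.89% of abundant genes. No member was called higher, and the count of members at least 2-fold higher was 0 also at an unadjusted p under 0.05 and by DESeq2, against 16.5% of all genes and 2.41% of abundant genes. The 3 WT libraries and the 3 Delta-TRRAP libraries did not overlap for 22 of the 45 members (48.9%), compared with 71.1% of all genes. In bulk RNA, a lower level in every cell and fewer cells at a high level cannot be told apart.

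**Figure D1:**
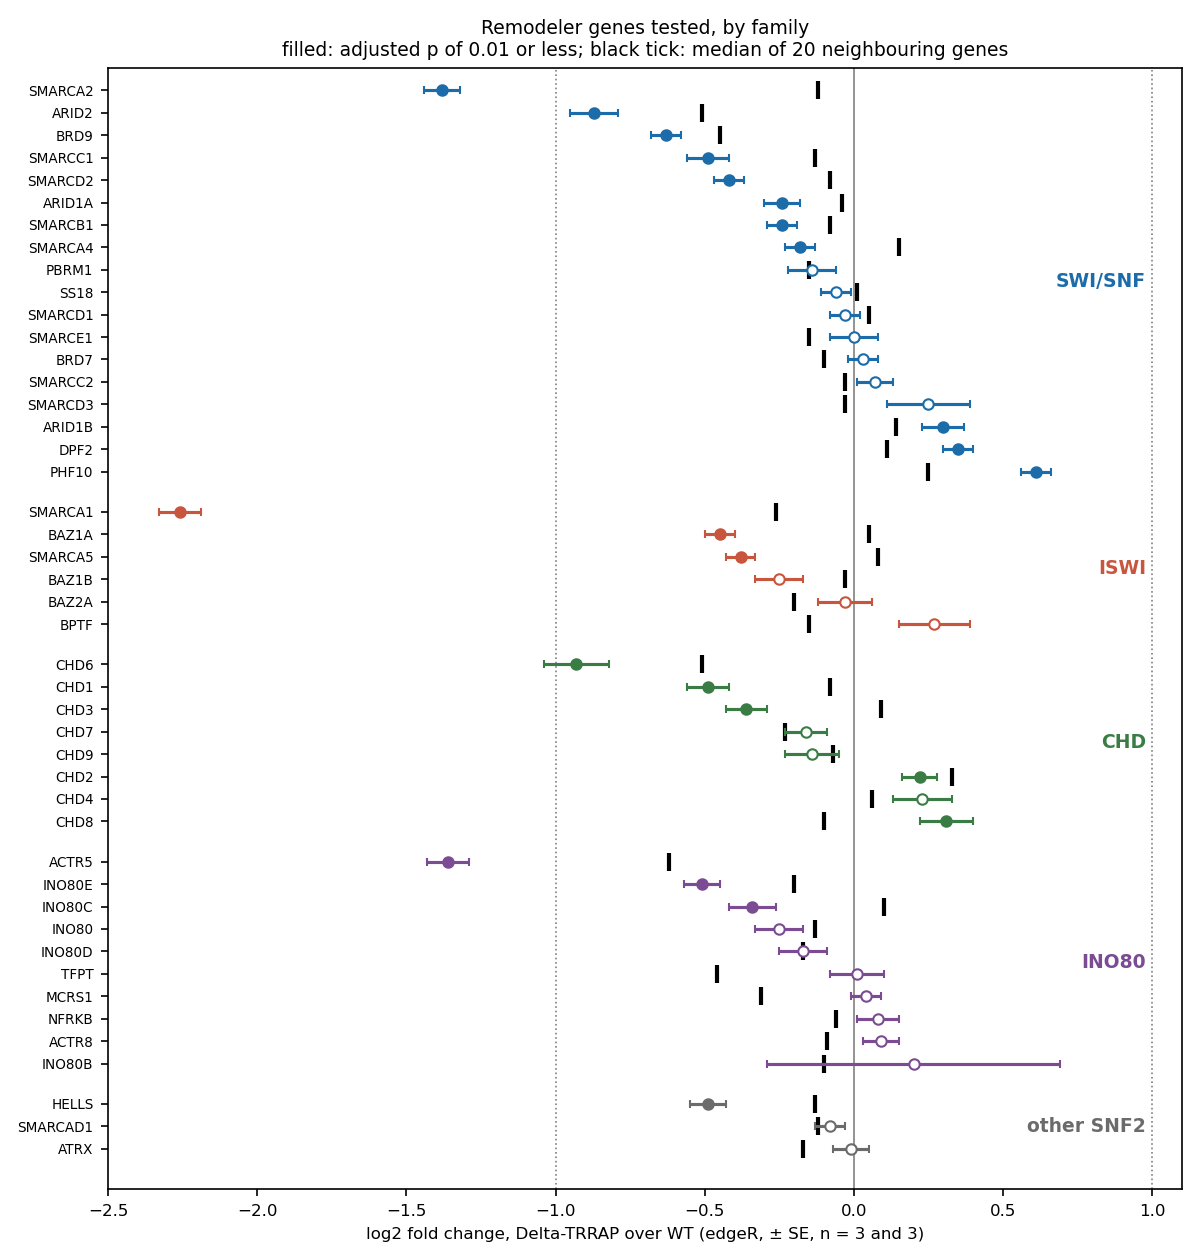
Log2 fold change of each of the 45 tested remodeler genes (Delta-TRRAP over WT, edgeR, ± SE, n = 3 and 3), grouped by family on the vertical axis. Filled points passed an adjusted p of 0.01, black ticks give the median of the neighbouring genes and dotted lines mark a fold change of 2; SMARCA1, SMARCA2 and ACTR5 lie beyond the lower line and none lies beyond the upper one.

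By family, the lower calls were spread over all 5 groups and the higher calls lay in SWI/SNF and CHD. Of 18 SWI/SNF genes tested, 8 were lower and 3 higher (median log2 fold change -0.10). Of 6 ISWI genes, 3 were lower and 0 higher (median -0.32), and of 8 CHD genes 3 were lower and 2 higher (median -0.15). Of 10 INO80 genes, 3 were lower and 0 higher (median -0.08), and of the 3 other SNF2 genes 1 was lower (median -0.08). The signs of the SWI/SNF, INO80 and other SNF2 medians depended on the scaling, since with library size alone they were 0.03, 0.05 and 0.05, whereas those of ISWI (-0.18) and CHD (-0.02) stayed below 0. Library size scaling moved the median of all genes from 0.03 to 0.17. The 16 ATPase genes had 8 lower and 2 higher (median -0.21), and the 29 other subunits had 10 lower and 3 higher (median -0.03). Differences between families were not tested.

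The SWI/SNF motors moved unequally. SMARCA2 (BRM, ENSG00000080503.24, chr9:1980290-2193624) had normalized counts of 2842, 2944 and 3022 in WT and of 1061, 1248 and 1074 in Delta-TRRAP. Every Delta-TRRAP library was far below every WT library, and the fall was 2.60-fold (log2 fold change -1.38 ± 0.06 SE, adjusted p = 4.88e-11, edgeR). SMARCA4 (BRG1), the more abundant motor, had 9487, 10067 and 10462 in WT and 8727, 9219 and 8549 in Delta-TRRAP. The groups did not overlap, but the gap between them was small and the log2 fold change was -0.18 ± 0.05 (adjusted p = 0.00806, edgeR). The SMARCA4 call was lost in 8 alternatives, with log2 fold changes of -0.05 to -0.19, among them library size scaling (adjusted p = 0.442, edgeR) and 4 that left out 1 library (WT replicate 2 or 3, or Delta-TRRAP replicate 1 or 3).

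Among SWI/SNF subunits, those that mark one form of the complex moved in both directions. ARID2, the DNA-binding subunit of PBAF, had 2924, 3014 and 3157 in WT and 1616, 1935 and 1431 in Delta-TRRAP (log2 fold change -0.87 ± 0.08, adjusted p = 1.9e-07, edgeR). PHF10, also of PBAF, moved the other way, with 4569, 4655 and 4943 in WT and 6956, 7192 and 7491 in Delta-TRRAP (0.61 ± 0.05, adjusted p = 6.21e-08, edgeR). It had the largest rise of any member, and its groups did not overlap. The other PBAF genes, PBRM1 (-0.14) and BRD7 (0.03), did not pass. BRD9, the bromodomain subunit of the non-canonical complex (ncBAF), had 2536, 2522 and 2603 in WT and 1624, 1671 and 1658 in Delta-TRRAP (-0.63 ± 0.05, adjusted p = 1.78e-08, edgeR), again without overlap. Of the subunits of canonical BAF, ARID1A was lower (-0.24 ± 0.06), whereas its alternative ARID1B (0.30 ± 0.07) and the PHD finger subunit DPF2 (0.35 ± 0.05) were higher. The ARID1A call was lost without WT replicate 3 (-0.19) or Delta-TRRAP replicate 1 (-0.21) and with library size scaling (-0.10), and the ARID1B call without WT replicate 1 (0.25).

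Of the core subunits shared between forms, 3 were lower and none higher. SMARCC1 (BAF155), the member with the highest counts, fell from 24565 ± 1011 to 17486 ± 1787 (mean ± SD, n = 3, log2 fold change -0.49 ± 0.07). SMARCD2 (BAF60B) fell by 0.42 and SMARCB1 (SNF5) by 0.24 on the log2 scale, all 3 without overlap between groups, and the SMARCB1 call was lost with library size scaling (-0.10). Of the rest, SMARCC2 (0.07), SMARCD1 (-0.03), SMARCD3 (0.25), SMARCE1 (0.00) and SS18 (-0.06) did not pass. SMARCD3 was low, with WT libraries between 106 and 111 and Delta-TRRAP libraries between 107 and 154. For SMARCE1, 18.9% of the exon bases are shared with a read-through gene on the same strand. Reads in shared bases are dropped by the counting mode used, so its level of 321 to 346 understates the transcript.

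The largest change of any member was in ISWI. SMARCA1 (SNF2L, ENSG00000102038.15, chrX:129446501-129523500) had normalized counts of 2216, 2224 and 2274 in WT and of 463, 516 and 423 in Delta-TRRAP. The WT libraries lay within a narrow band and every Delta-TRRAP library was below it, a 4.78-fold fall (log2 fold change -2.26 ± 0.07, adjusted p = 2.92e-13, edgeR). SMARCA5 (SNF2H), the second ISWI motor, fell from 16884, 17743 and 17971 to 12979, 13840 and 13493 (-0.38 ± 0.05, adjusted p = 7.21e-06, edgeR). BAZ1A (ACF1), the partner of SMARCA5 in the ACF and CHRAC complexes, fell by a like amount (-0.45 ± 0.05). BAZ1B (WSTF), of the WICH complex, had -0.25 with an adjusted p of 0.0123 and overlapping groups, and BAZ2A (TIP5), of the nucleolar NoRC complex, had -0.03. BPTF, the reader subunit of NURF, had 4968, 5393 and 5967 in WT and 6442, 8118 and 5167 in Delta-TRRAP. Its groups overlapped through Delta-TRRAP replicate 3 (0.27 ± 0.12, adjusted p = 0.0481, edgeR), and without that library it rose by 0.42 on the log2 scale and passed (adjusted p = 0.000173, edgeR). Without Delta-TRRAP replicate 2 it was at 0.10 (adjusted p = 0.261, edgeR).

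CHD genes moved in both directions and none reached a fold change of 2 with all 6 libraries. CHD6 had 2665, 2571 and 2857 in WT and 1480, 1673 and 1095 in Delta-TRRAP (log2 fold change -0.93 ± 0.11, adjusted p = 1.37e-06, edgeR). Without Delta-TRRAP replicate 2 its log2 fold change was -1.06, past a fold change of 2, and without Delta-TRRAP replicate 3 it was -0.78. CHD1, which binds methylated H3K4 and acts with elongating polymerase, fell from 8335 ± 134 to 5940 ± 696 (-0.49 ± 0.07, adjusted p = 1.38e-05, edgeR). CHD3 fell from 4228 ± 250 to 3289 ± 299 (-0.36 ± 0.07, adjusted p = 0.000176, edgeR), and neither gene overlapped between groups.

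CHD8, a chromodomain protein known for its link to autism, had 3814, 4150 and 4371 in WT and 5094, 5967 and 4246 in Delta-TRRAP (log2 fold change 0.31 ± 0.09, adjusted p = 0.00743, edgeR). Its groups overlapped, and the call was lost in 6 alternatives, 4 of which left out 1 library (0.19 without Delta-TRRAP replicate 2, and 0.25 to 0.31 without WT replicate 1 or 2 or Delta-TRRAP replicate 1). CHD2 rose from 3923 ± 150 to 4584 ± 379 (0.22 ± 0.06, adjusted p = 0.00414, edgeR), a call that was lost in 5 alternatives, 4 of which left out 1 library (0.16 to 0.23). CHD4 had 1131, 1220 and 1284 in WT and 1256, 1263 and 1752 in Delta-TRRAP (0.23 ± 0.10, adjusted p = 0.0573, edgeR), and 1 library, Delta-TRRAP replicate 3, stood above the rest. For CHD4, 46.9% of the exon bases are shared with a read-through gene that had 0 counts, so its level is understated. CHD7, mutated in CHARGE syndrome, had -0.16 ± 0.07 (adjusted p = 0.0411) and CHD9 had -0.14 ± 0.09 (adjusted p = 0.193), both with overlapping groups.

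In the INO80 complex 3 of the 10 genes tested fell, led by an actin-related protein, and the motor lay just outside the threshold. That is 30%, against 27.6% of all genes and 45.9% of abundant genes that passed as lower. INO80, the motor, had 2201, 2337 and 2397 in WT and 1912, 2236 and 1689 in Delta-TRRAP (log2 fold change -0.25 ± 0.08, adjusted p = 0.012, edgeR), with overlapping groups. It passed as lower by DESeq2 (adjusted p = 0.0053), with RLE scaling in edgeR (adjusted p = 0.00796) and without a filter on low counts (adjusted p = 1.65e-05). INO80 also passed without Delta-TRRAP replicate 2 (-0.35), but did not pass when any other single library was left out (-0.29 to -0.16). ACTR5 (ARP5, ENSG00000101442.10, chr20:38748460-38772520), which couples the motor to the nucleosome, had 846, 801 and 822 in WT and 301, 334 and 325 in Delta-TRRAP. The groups stood wide apart, a 2.57-fold fall (-1.36 ± 0.07, adjusted p = 1.15e-10, edgeR). INO80C (IES6), which forms a module with ACTR5, fell from 646 ± 27.7 to 512 ± 48.7 (-0.34 ± 0.08, adjusted p = 0.00101, edgeR), a call that was lost with library size scaling (-0.20). INO80E had 1586, 1473 and 1522 in WT and 1109, 1011 and 1092 in Delta-TRRAP, without overlap (-0.51 ± 0.06, adjusted p = 1.04e-06, edgeR).

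The remaining INO80 genes did not pass. ACTR8 (ARP8), the actin-related subunit of the DNA-sensing module, had 0.09, NFRKB 0.08, MCRS1 0.04, TFPT 0.01 and INO80D -0.17 (log2 fold changes). INO80B was listed at normalized counts of 2.94 to 6.82, with a log2 fold change of 0.20 ± 0.49. It shares 76.0% of its exon bases with the read-through gene INO80B-WBP1, which had 0 counts, so INO80B could not be measured well by this counting.

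Of the other SNF2 genes, HELLS (LSH), which helps to maintain DNA methylation, had 2064, 1964 and 2019 in WT and 1328, 1444 and 1545 in Delta-TRRAP (log2 fold change -0.49 ± 0.06, adjusted p = 2.87e-06, edgeR). The groups did not overlap. SMARCAD1 (-0.08 ± 0.05, adjusted p = 0.2) and ATRX (-0.01 ± 0.06) overlapped between groups.

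**Figure D2:**
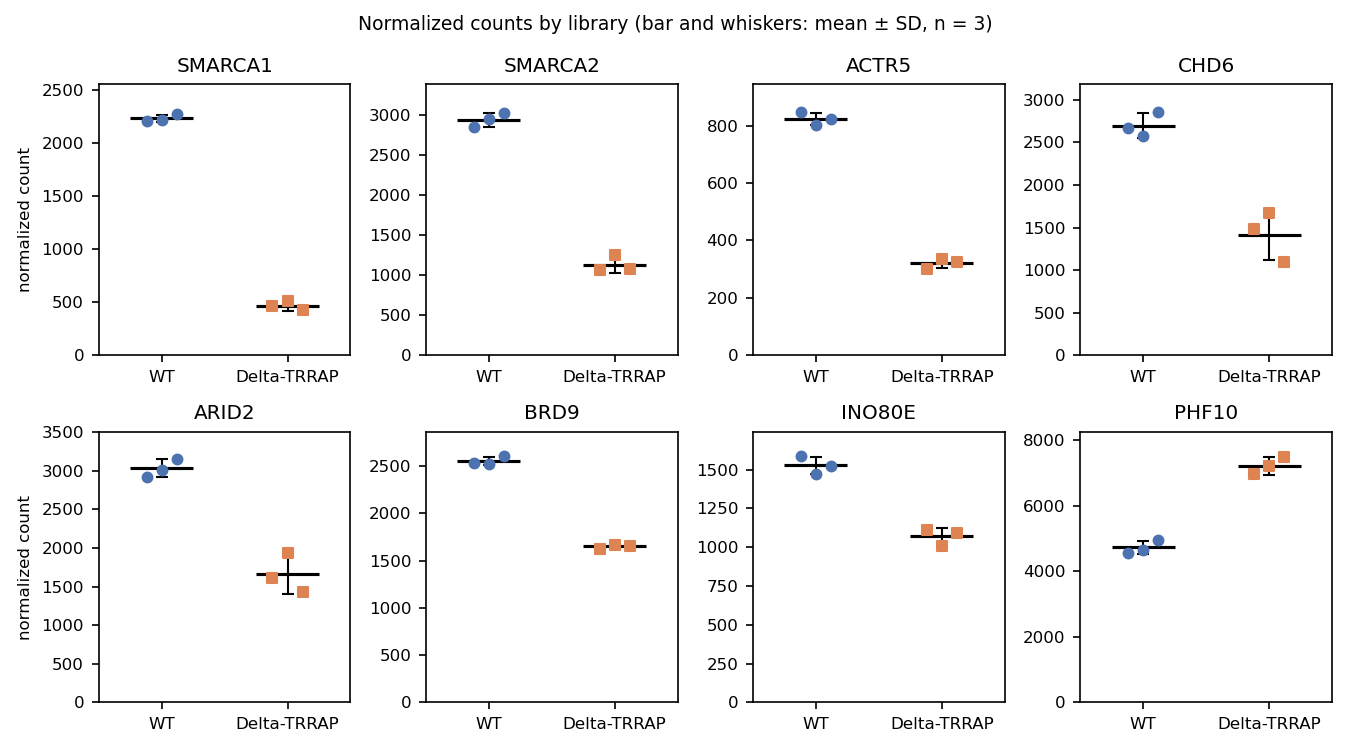
Normalized counts in each library of the 8 non-overlapping members with a log2 fold change of at least 0.5 in size, WT (circles) and Delta-TRRAP (squares), with the mean and SD (n = 3) as bar and whiskers and axes that start at 0. SMARCA1 shows the widest gap (2216 to 2274 against 423 to 516), and PHF10 is the one gene higher in Delta-TRRAP.

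Because one paralog often replaces another in a complex, the balance within 10 pairs was compared library by library. Levels were counts per kb of merged exons, and the change in a balance does not depend on the scaling of the libraries. SMARCA4 made up 80.3% to 80.9% of the SMARCA4 and SMARCA2 total in WT and 90% to 91.0% in Delta-TRRAP, a change of 1.20 in the log2 ratio (from 2.06 ± 0.03 to 3.26 ± 0.08, SD, n = 3). SMARCA5 made up 80.3% to 81.0% of the ISWI motor total in WT and 93.5% to 94.5% in Delta-TRRAP, a change of 1.88 (from 2.07 ± 0.04 to 3.95 ± 0.13). In both pairs the more abundant paralog took a larger share in Delta-TRRAP, and no library overlapped with the other group.

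The other pairs changed less. BRD7 gained on BRD9 (log2 ratio 0.66 higher), CHD4 on CHD3 (0.58), CHD8 on CHD9 (0.46) and SMARCD1 on SMARCD2 (0.39), whereas ARID1A lost to ARID1B (by -0.53) and SMARCC1 to SMARCC2 (by -0.57). These 6 did not overlap between groups either. Of all single genes tested 71.1% did not overlap, and the share for ratios of other gene pairs was not taken. CHD9 was above CHD8 per kb of merged exons but below it per kb of the longest transcript, so their order is not settled. The CHD4 level is understated as described above, and its change was read only from the exon bases that are not shared. CHD4 itself did not pass, and its log2 ratio to CHD3 was -1.59, -1.72 and -0.98 in Delta-TRRAP replicates 1, 2 and 3. The gain of CHD4 thus rests in large part on replicate 3. SMARCD1 to SMARCD3 (-0.26) and BAZ1A to BAZ1B (-0.19) overlapped. With 3 libraries against 3 a two-sided exact permutation test cannot go below p = 0.1, the value for each of the 8 pairs that did not overlap (0.125 after Benjamini-Hochberg adjustment over 10 pairs), so none can pass a threshold of 0.05 in this design.

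**Figure D3:**
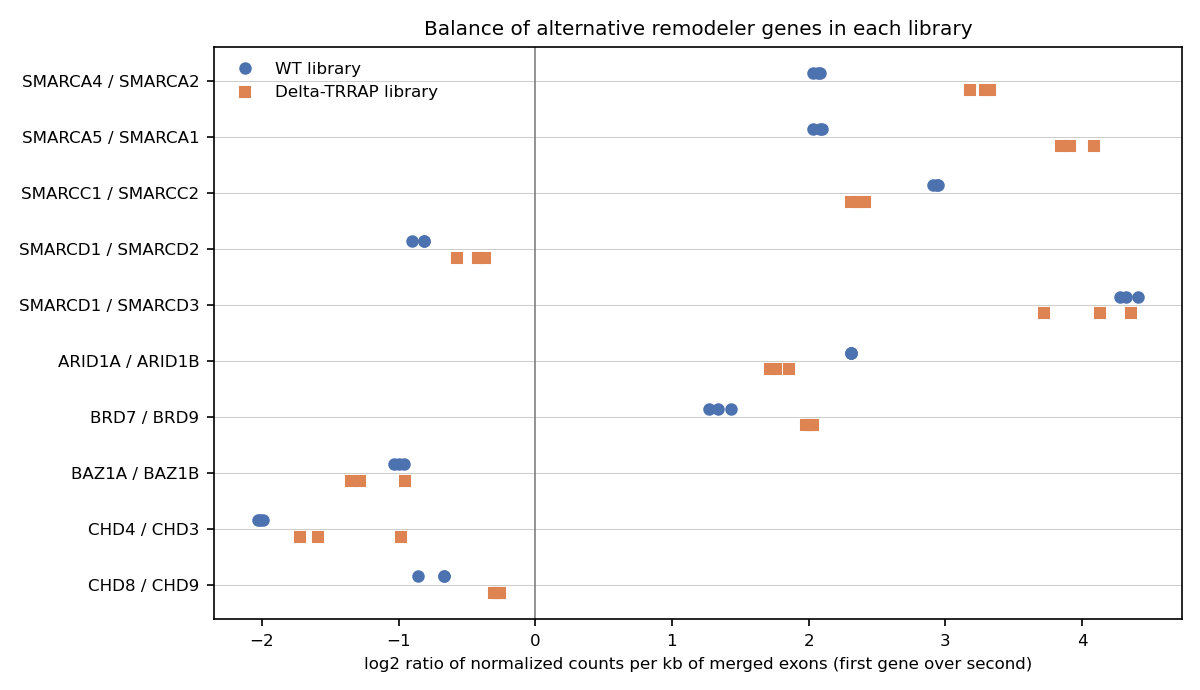
Log2 ratio of counts per kb of merged exons for 10 pairs of alternative remodeler genes, 1 point per library, WT as circles and Delta-TRRAP as squares. The SMARCA4 to SMARCA2 ratio moves from 2.03 to 2.08 in WT up to 3.18 to 3.33, and the SMARCA5 to SMARCA1 ratio from 2.03 to 2.10 up to 3.85 to 4.09.

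Other genes of the same complexes, 43 subunits and related ATPases, were read from the same fit. They were chosen by role, with earlier results of these data known. At an adjusted p of 0.01, 25 were lower, 7 higher and 11 did not pass (median log2 fold change -0.36). Over all 43, whatever their count, these are 58.1% lower and 16.3% higher. The shares were 27.6% and 30.7% of all genes and 45.9% and 22.1% of abundant genes. All 4 INO80 companions were lower: the ring ATPases RUVBL1 (-0.44 ± 0.05) and RUVBL2 (-0.93 ± 0.05), both shared with TIP60, the DNA-binding subunit YY1 (-0.59 ± 0.05) and the deubiquitinase UCHL5 (-0.45 ± 0.05). Of 12 CHD and NuRD companions 5 were lower and 1 higher. The deacetylases HDAC1 (-0.38 ± 0.05) and HDAC2 (-0.62 ± 0.05), MTA1 (-0.24 ± 0.05) and MTA2 (-0.42 ± 0.05) were lower, MTA3 was higher (0.52 ± 0.05), and CDK2AP1 was called lower at a fold change above 2 (-1.65 ± 0.05). The genes around CDK2AP1, up to 10 on each side, had a median of -0.95, which left -0.70 after subtraction, below a fold change of 2.

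Of 10 SWI/SNF companions 7 were lower and 1 higher. ACTL6A (BAF53A), the widely expressed counterpart of ACTL6B, had a log2 fold change of -0.38 ± 0.05, the ncBAF subunit BICRA -0.36 ± 0.10 and the SS18 paralog SS18L1 -0.74 ± 0.07. The PHD finger paralogs of DPF2 split, with DPF1 at -0.43 ± 0.10 and DPF3 at 0.78 ± 0.12. The neighbours of SS18L1, BICRA and DPF1 had medians of -0.83, -0.57 and -0.58, and with these subtracted the 3 genes were at 0.09, 0.22 and 0.15. Of all 25 companions that passed as lower, the other 22 stayed below 0 after subtraction, and all 7 that passed as higher stayed above it. Of 7 ISWI companions 3 were lower and 3 higher. CECR2, the partner of ISWI motors in the CERF complex, rose from 3.67 ± 1.23 to 437 ± 79.8 (normalized counts, mean ± SD, n = 3), the largest change among the companions (6.86 ± 0.24, adjusted p = 2.62e-12, edgeR). Of the 10 other SNF2-type companions 6 were lower and 2 higher, and RAD54L, a motor of recombination, fell by 0.69 on the log2 scale.

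Since each line was 1 clone, the genes around each member were read as well, up to 10 on each side that averaged at least 100 normalized counts. The median log2 fold change of the neighbours was -0.12 for SMARCA2 and -0.26 for SMARCA1, small beside the changes of those genes. ACTR5 and CHD6 both lie on chromosome 20, and their neighbours had medians of -0.62 and -0.51. All of the ACTR5 neighbours (100%) and 85.0% of the CHD6 neighbours were below the median of all genes. With the neighbours' median subtracted, an alternative chosen after seeing the data, ACTR5 was at -0.75 and CHD6 at -0.42, and 2 members, SMARCA1 and SMARCA2, remained beyond a fold change of 2.

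ARID2 on chromosome 12 and BRD9 on chromosome 5 also had low neighbours (-0.51 and -0.45), which left -0.35 and -0.18. PHF10 lay among neighbours with a median of 0.25, leaving 0.36, and CHD2 went from 0.22 to -0.11. These remainders depend on how many neighbours are read: the median around CHD2 was 0.14 with 40 genes, below its own 0.22, and that around BRD9 was -0.31 with 10 genes and -0.72 with 40. Of the 45 members 7 changed sign after subtraction, CHD2 as the only one past the adjusted p, with PBRM1 (0.01), CHD7 (0.07), SMARCAD1 (0.04), BAZ2A (0.16), ATRX (0.16) and SMARCE1 (0.15). TFPT went against its surroundings, at 0.01 where its neighbours had a median of -0.46. A difference between the clones in a stretch of chromosome and an effect of the genotype cannot be told apart here.

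Many remodelers are long transcripts, and for long transcripts Delta-TRRAP replicates 3 and 2 stood apart from each other. This was the most different pair of libraries within a group. Other pairs, those of WT included, were not compared by transcript length. Over all genes that averaged at least 1000 normalized counts, the median log2 difference between Delta-TRRAP replicates 3 and 2 was 0.11 for the 936 genes with a longest transcript under 2 kb and -0.23 for the 808 genes of 8 kb or more. Of the members, 12 were in that last class, and their differences ran from -0.65 to -0.12 with a median of -0.38. BPTF (-0.65), CHD6 (-0.61), CHD9 (-0.54) and CHD8 (-0.49) had the widest, and EP400 itself had -0.65. The 13 members of 4 to 6 kb had a median of -0.01, and the 8 of 6 to 8 kb had -0.28. CHD4, in the class of 6 to 8 kb, went the other way at 0.47.

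Calls also moved when single libraries were left out. Delta-TRRAP replicate 2 had the highest normalized Delta-TRRAP count of each of the 12 members of 8 kb or more that averaged at least 1000. Below that level it was also the highest for INO80D (662) but the lowest for SMARCE1 (324). Without Delta-TRRAP replicate 2, 23 members were lower in place of 18. BAZ1B (-0.35), INO80 (-0.35), CHD9 (-0.28), PBRM1 (-0.24) and CHD7 (-0.22) then passed as lower and CHD4 (0.31) as higher. The number of higher members fell from 5 to 2 without WT replicate 1, to 3 without WT replicate 2 and to 3 without Delta-TRRAP replicate 1. Shares of all genes that passed were not taken for these fits. Of the members that passed with all 6 libraries, SMARCA4, ARID1A, ARID1B, CHD2 and CHD8 lost the call when some single library was left out. The others, with SMARCA1, SMARCA2, ACTR5, CHD6, ARID2, BRD9, INO80E and PHF10 among them, passed the adjusted p without any 1 of the 6 libraries. What sets libraries apart by transcript length was not tested.

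**Figure D4:**
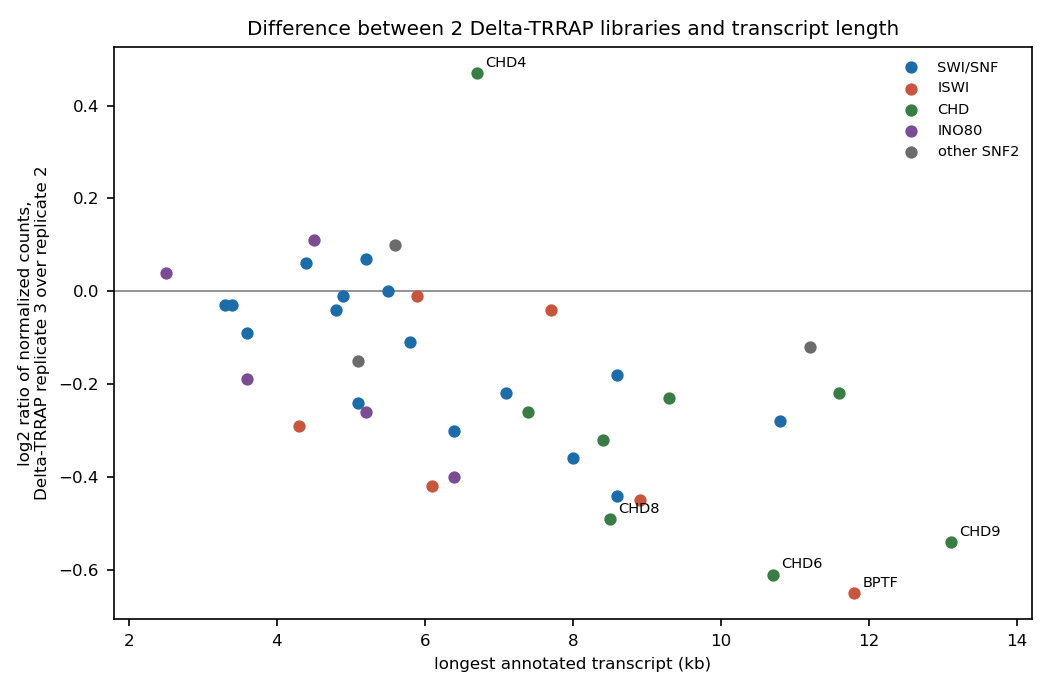
Log2 ratio of normalized counts between Delta-TRRAP replicates 3 and 2 against the longest annotated transcript (kb) of the 38 members with a mean count of at least 1000, coloured by family. The 12 members of 8 kb or more all lie below 0, down to -0.65 for BPTF, and CHD4 stands apart at 0.47.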

How the data were processed

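Poly(A) RNA-seq of 3 WT and 3 Delta-TRRAP libraries was used, grouped by sample title. The authors aligned reads to hg38 with STAR, kept unique alignments, and deposited counts per GENCODE gene from htseq-count (HTSeq 2.0.2, reverse-stranded, union mode). Union mode drops reads in exons shared by genes, and unique alignment lowers genes with near-identical copies. These counts were not normalized. The authors' normalized table, which has 3 columns of another condition, and their comparison table of fold changes and p-values were not used. Genes that averaged at least 5 normalized counts (19114 of 34998 with a count) were tested with edgeR 4.0.16 (TMM, quasi-likelihood F test, group as the only term, Benjamini-Hochberg over all genes tested) in R 4.3.3. DESeq2 1.42.0, limma-voom 3.58.1, other scalings, filters, a replicate block and leaving out each library were alternatives. SE is the size of the log2 fold change divided by the square root of F. The fit was tested on simulated counts. Permutation tests used scipy 1.17.1. Replicates are called biological in the labels but come from 1 clone per group, and counts at these depths limit precision only for the lowest genes. The members and lists were chosen with earlier results of these data known. Every member was named, with full statistics for ATPases and for members past the adjusted p with a log2 fold change of at least 0.5 in size, and companions were named if called or if partners of such members. Positions, transcript lengths and shared exons came from a later GENCODE release on GRCh38 than that of the authors.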

Additional observations from a re-analysis of the deposited data

How the results depend on the processing

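The calls of SMARCA1, SMARCA2 and ACTR5 held under each scaling, test, filter and left-out library. Over all alternatives SMARCA1 ranged from -2.33 to -1.99, SMARCA2 from -1.45 to -1.25, and ACTR5 from -1.39 to -0.75, the last value with its neighbours' median subtracted, which left 2 members called lower in place of 3. Of 625 values of single members under alternatives, 541 kept direction and side of the threshold, 26 newly passed, 30 no longer passed and 28 changed sign, subtraction of the neighbours not included. Shares of all genes that passed were taken under the main setting only. Counts of members under alternatives, here and elsewhere, thus have no such share beside them. With a fold change of 1.5, 1 member was called higher and 6 lower. With library size scaling 11 members passed as higher, and the medians were -0.01 over all members, 0.03 for SWI/SNF, -0.18 for ISWI, 0.05 for INO80 and 0.05 for other SNF2 genes. With upper quartile scaling they were -0.04 over all members, 0.00 for SWI/SNF, 0.02 for INO80 and 0.02 for other SNF2 genes. These scalings moved the median of all genes from 0.03 to 0.17 and 0.13. With a minimum mean count of 50 the SWI/SNF median was -0.03. The CHD median moved about as much, to -0.02 with library size scaling, -0.05 with upper quartile scaling and -0.08 with a minimum of 50, where that of ISWI was -0.25.

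Sign changes were near 0. With library size scaling SMARCD1 was at 0.10, SMARCE1 at 0.13, SS18 at 0.08, BAZ2A at 0.10, SMARCAD1 at 0.05 and ATRX at 0.12, and with upper quartile scaling they were at 0.07, 0.10, 0.04, 0.07, 0.02 and 0.09. With a minimum of 50 SMARCD1 was at 0.04, SMARCE1 at 0.07, SS18 at 0.02, BAZ2A at 0.04 and ATRX at 0.06, and without a filter TFPT was at -0.01. With 1 library left out, SMARCE1 ranged from -0.05 to 0.03 (0.00 and 0.01 among them), BAZ2A from -0.15 to 0.07 (0.01 in one fit), ATRX at 0.01 and 0.04, BRD7 at -0.02, and TFPT at -0.06 and -0.02. With the neighbours subtracted 7 members changed sign, of which only CHD2 (-0.11) had passed the test.

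By DESeq2 and with RLE scaling 20 members passed as lower. With 1 library left out, 2 to 6 members passed as higher, 16 to 23 as lower and 3 to 4 were called lower (CHD6 added without Delta-TRRAP replicate 2). The medians ranged from -0.22 to -0.09 over all members and from -0.24 to -0.06 for INO80. EP400 ranged from -0.03 to 0.29 and passed (adjusted p = 0.00149) without Delta-TRRAP replicate 3. Replicate numbers are shared by the groups, but the same-number correlations of deviations were 0.0867, -0.084 and -0.192, so same-numbered libraries were not taken as pairs. With the replicate number as a block 3 members passed as higher and 17 as lower. The cause of these changes was not tested. Only 1 clone per genotype was sequenced, and depth limits INO80B and ACTL6B.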
